A study of Drosophila melanogaster with 10 samples.

Results

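Accessible DNA inside genes of middling length was examined in Drosophila S2 cells, a hemocyte-like line derived from embryos. The members are ATAC-seq peak summits on 2L, 2R, 3L, 3R, and X that lie inside a protein-coding gene of at least 5000 bp and less than 50000 bp, inside no protein-coding gene of 50000 bp or more, and more than 2000 bp from the start or end of any annotated gene. They are called internal summits here, and the genes that hold them are called hosts. The rule found 7550 internal summits among the 39806 summits of the list. These came from 3031 of the 15615 peaks. They lay in 1146 host genes. Most were inside 1 mid-length gene, whereas 344 lay in 2 overlapping mid-length genes and 11 in 3, and these were counted for each host.

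The libraries came from cells exposed to dsRNA for 5 days, with 2 replicates for each of 5 treatments. LACZ dsRNA was the control, and the others were dsRNA to GAF, to BAP170, to NURF301, and to NURF301 and BAP170 together. GAF is the GAGA factor, which is encoded by Trl and binds GAGA repeats. BAP170 is a subunit of the PBAP remodeling complex and NURF301, encoded by E(bx), is a subunit of the NURF remodeling complex. All cells were S2 cells, and no genotype differs between the groups. The list pools the reads of all 10 libraries, so no internal summit has a value for a condition or a replicate, the depth of a library is unknown, and nothing below compares treatments. No test was made between groups of summits or genes, because a pooled list carries no replicate error.

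In ATAC-seq the Tn5 transposase cuts DNA that nucleosomes leave exposed, and such sites are mostly promoters and enhancers. Enhancers in flies often lie in the introns of the genes they control or of neighboring genes, and genes with many tissue-specific functions tend to have several. Longer fly genes also often have more than 1 promoter, each with its own first exon. The gene table used here gives the outer limits of a gene without strand, exons, or starts of single transcripts. Internal promoters and internal enhancers therefore cannot be told apart, and an internal summit could not be placed in an exon or an intron.

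Internal summits were weaker than summits at gene ends. The score of a summit is taken here as the −log10 q value from peak calling, so a higher score means stronger enrichment of reads. The median score of the internal summits was 14.4, with the middle 50% between 4.60 and 43.7. The 14101 summits within 500 bp of an end of a protein-coding gene had a median of 48.9 and a middle 50% between 12.4 and 126. A score of 100 or more was found for 788 internal summits, or 10.4%, and for 31.4% of the summits at gene ends. Internal summits thus scored lower at the median and at both limits of the middle 50%, although both ranges overlapped widely. The 3854 summits placed in the same way inside genes of 50000 bp or more had a median of 14.4, and the 2262 summits outside all genes and more than 2000 bp from any had a median of 12.4. The medians of the internal summits of mid-length and of longer genes were thus nearly equal. The score grows with read depth and with the copy number of the DNA as well as with accessibility, and their parts were not separated.

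**Figure D1:**
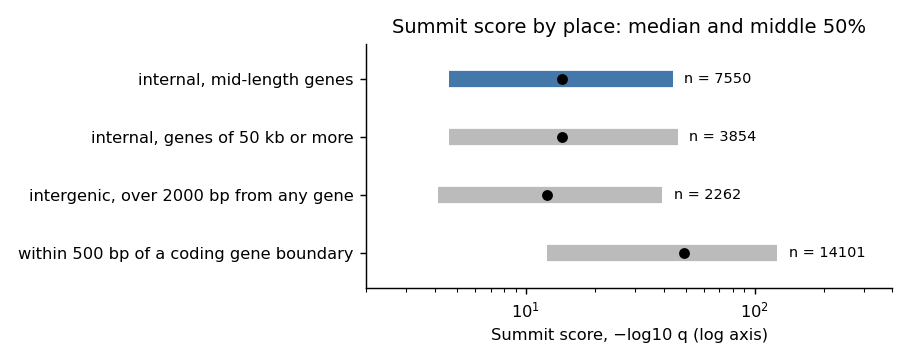
Scores of summits grouped by place, with the score, taken as −log10 of the q value, on a log axis. The black point marks the median and the bar spans the middle 50% of each group, and the 7550 internal summits (blue, median 14.4) sit beside the other internal and intergenic groups and below the summits at gene ends (median 48.9).

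The 3 groups more than 2000 bp from any gene boundary differed more in density than in score. The rule leaves only part of each gene open to a member, and this eligible sequence came to 25952 kb for mid-length genes. Internal summits occurred at 29.1 per 100 kb of it. In genes of 50000 bp or more the density was 15.6 per 100 kb, and outside genes it was 8.90 per 100 kb. The interior of mid-length genes was therefore the densest of these 3 compartments. The density changed little with the distance to the nearest gene boundary, from 32.0 per 100 kb just beyond 2000 bp and up to 3000 bp to 30.7 per 100 kb beyond 6000 bp and up to 10000 bp, and was 22.8 per 100 kb beyond 10000 bp. The median score was between 12.4 and 16.2 in all these intervals. At the limit set by the rule, the 1144 summits in the last 500 bp before it had a median score of 12.2 and the 1012 summits in the first 500 bp beyond it had a median score of 14.7. The internal summits had a median distance of 4652.5 bp and a largest distance of 24682 bp.

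Among the arms, X had the fewest internal summits for its length. Its density was 20.4 per 100 kb, whereas the autosomal arms had 29.4 per 100 kb on 3R, 30.0 on 2L, 31.0 on 2R, and 34.4 on 3L. The median score on X, at 13.7, was between that of 3L, at 13.3, and those of the other arms, which reached 15.5 on 3R. X thus had fewer internal summits and a similar score. It had fewer summits of every kind, 4884 against 7722 to 9665 on the autosomal arms, and the internal summits on X, 979 of its 4884, were a share of all summits within the 18.2% to 20.3% of the other arms. The share of eligible genes that were hosts was 32.2% on X and 40.6% to 44.4% on the autosomal arms. Copy number differences between X and the autosomes were not measured here, and their part was not tested.

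Internal summits were grouped. Of the 7550, 6332, or 83.9%, belonged to a peak with more than 1 summit, much as in the whole list, where this share was 83.3%. Adjacent internal summits in a host were a median of 270.5 bp apart. Of 6770 adjacent pairs, 68.4% lay within 500 bp and 11.0% more than 2000 bp apart. Of the 3031 peaks, 2730 held internal summits alone, among them 1218 with a single summit. The other 301 also held other summits, and 912 internal summits (12.1%) lay in these. Internal summits of multi-summit peaks had a median score of 16.2, and the 1218 that stood alone had a median score of 7.32. In peaks with at least 2 internal summits, the summits spanned a median of 389.5 bp.

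The most internal summits in 1 peak were 19, in Hipk and in mim. Hipk encodes a homeodomain-interacting protein kinase. Its cluster ran from 569817 to 574418 on 3L, where the lowest score was 1.45, the median 15.1, and the highest 89.8. The cluster in mim ran from 6961529 to 6966034 on 2R, where the lowest score was 9.92, the median 49.4, and the highest 97.9. It also lies in the overlapping gene CheB42c. The longest run was on 3R, where 14 internal summits of 1 peak, in neo and in Atg16, spanned 8602 bp from 29821247 to 29829849, with a median score of 7.10. The medians of the clusters in Hipk, mim, and neo thus ran from 7.10 to 49.4, beside 14.4 over all internal summits. None of the summits in these clusters reached a score of 100, whereas some other broad clusters went higher. A cluster of 18 in Lk6 had a median of 52.2 and a highest score of 154, and a cluster of 15 in Swip-1 reached 108. Clusters of 14 reached 115.5 in Epac, 102.5 in cwo, and only 46.5 in CG17646.

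Of 3113 mid-length protein-coding genes on the large arms, 2873 had eligible sequence, and 1146 of these, or 39.9% (95% Wilson interval 38.1 to 41.7%), were hosts. The background for every count of hosts below is that 39.9%. Wilson intervals cover counting error only and take genes as independent, although neighbors share summits. Hosts were longer than eligible genes without an internal summit, with a median length of 15372.5 bp and 8859 bp, and had more eligible sequence, with a median of 9336 bp and 3767 bp. They also had more annotated transcripts, with a median of 4 and 2. The median host had 4 internal summits in 2 peaks. A host held exactly 1 internal summit in 222 cases, 5 or more in 535, 10 or more in 253, and 20 or more in 86. The 115 hosts with the most internal summits held 37.5% of the 7916 pairings of an internal summit with a host. The number per host was thus spread over a wide range, with a long tail of densely occupied genes.

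**Figure D2:**
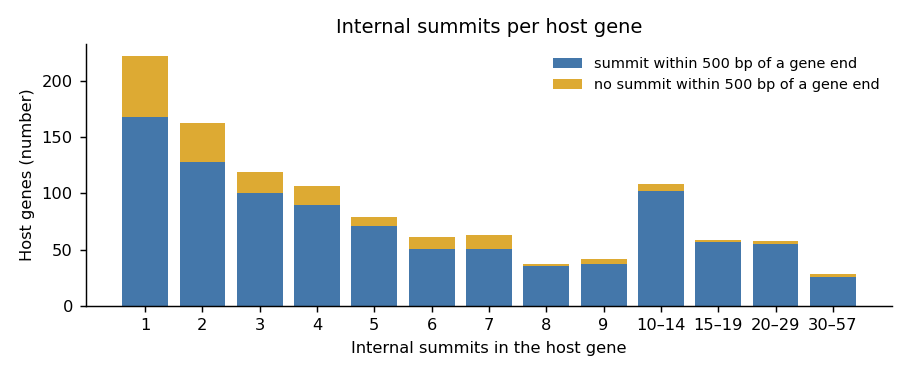
Number of host genes (y axis) by the number of internal summits they hold (x axis), split by whether a summit also lies within 500 bp of either end of the host. Hosts with 1 internal summit were the most frequent (222), and the share of hosts without a summit at an end falls from 54 of those 222 to 2 of the 28 with 30 to 57 internal summits.

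Within a length class, genes with several transcripts had more internal summits. Among genes of 20 to 50 kb, 43.6% of the 55 genes with 1 annotated transcript, 50.9% of the 334 genes with 2 to 4, and 72.1% of the 294 genes with 5 or more were hosts. The density followed the same order in genes of 10 to 20 kb, with 17.3, 28.7, and 43.7 per 100 kb. In genes of 5 to 10 kb the densities were 20.4, 38.3, and 39.6 per 100 kb, so the upper groups were alike there. Genes with more transcripts also more often had a summit at an end, for example 78.2% against 54.5% of the longest class with 5 or more and with 1. The number of transcripts in an annotation also depends on how well a gene has been studied, and its part was not tested.

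Host genes mostly had accessible ends as well. A summit lay within 500 bp of an end, called a boundary summit here, for 971 of the 1146 hosts, or 84.7% (95% Wilson interval 82.5 to 86.7%). Among the 1727 eligible genes without an internal summit it was 1049, or 60.7% (95% Wilson interval 58.4 to 63.0%). The background over all protein-coding genes of the large arms was 60.0%, over all mid-length genes 70.7%, and over eligible mid-length genes 70.3%. Read the other way, 48.1% of eligible genes with a boundary summit and 20.5% of those without were hosts. Of the hosts, 335 had a boundary summit at both ends, 636 at 1 end, and 175 at neither. Internal summits were most frequent where both ends were accessible. The density was 58.9 per 100 kb in genes with boundary summits at both ends, 32.7 per 100 kb in genes with 1 such end, and 8.11 per 100 kb in genes with none.

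The difference was seen at every gene length. In genes of 5 to 10 kb the density was 43.7 per 100 kb with a boundary summit and 11.3 per 100 kb without. In genes of 10 to 20 kb it was 41.8 and 9.15 per 100 kb, and in genes of 20 to 50 kb it was 38.4 and 7.22 per 100 kb. The difference was thus of similar size in the 3 length classes, and over all classes it was 32.0 per 100 kb. It was smaller in the 463 genes with no boundary of another gene within 1000 bp of either end, where the density was 23.4 per 100 kb in the 212 genes with a boundary summit and 4.93 in the 251 without. Both densities were lower in these isolated genes, whereas the shares of hosts were close to those of all eligible genes. They were 45.8% with a boundary summit and 18.3% without, against 48.1% and 20.5%. Among the isolated genes, 67.8% of 143 hosts and 35.9% of 320 other genes had a boundary summit. A neighbor's promoter can count as a boundary summit, and its part in the larger difference was not tested. When each peak was represented by its strongest summit, the densities over all eligible genes were 14.8 and 3.74 per 100 kb. Genes kept their class here. With boundary summits also limited to the strongest of each peak, the difference was 8.17 per 100 kb.

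**Figure D3:**
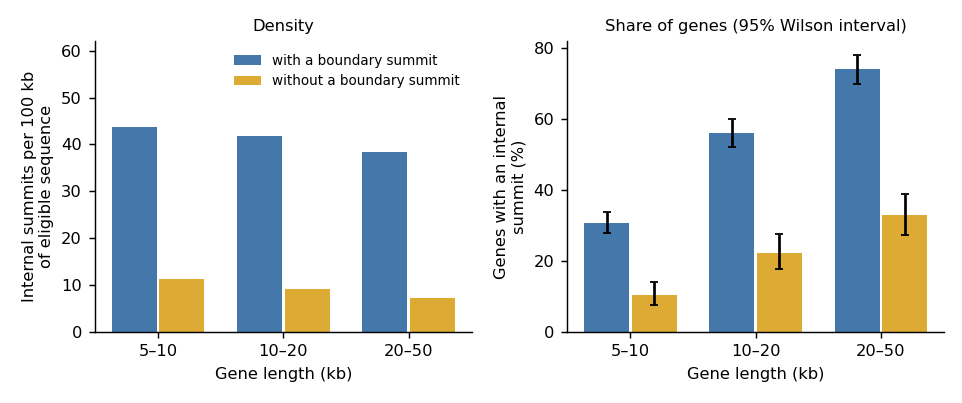
Internal summits per 100 kb of eligible sequence (left) and the percent of genes with at least 1 internal summit (right, bars with 95% Wilson intervals, which cover counting error only), by gene length in kb and by whether a summit lies within 500 bp of a gene end. In all 3 length classes the genes with a boundary summit are higher, for example 74.0% against 32.8% of genes of 20 to 50 kb.

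The density of internal summits also followed the strength of the boundary summit. Eligible genes with a boundary summit were put in 4 groups of 505 genes by the score of their strongest boundary summit. The density was 27.8 per 100 kb in the lowest group, then 35.2, 42.4, and 55.8 per 100 kb in the highest. The strongest internal score of the hosts did not follow this order, with medians of 27.1, 69.0, 69.0, and 42.6. A stronger end thus went with more internal summits and not steadily with stronger ones. In the 971 hosts with both, the median of the strongest boundary score was 134 and that of the strongest internal score was 51.6. In 310 of them, or 31.9%, the strongest internal summit had the higher score. Depth and copy number enter both scores alike, and their part was not tested.

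Among the hosts without a boundary summit, the median of the strongest internal score was 35.0. Where a host had exactly 1 internal summit, the score was similar with and without a boundary summit, with medians of 7.55 in 168 hosts and 8.72 in 54. Hosts without a boundary summit that held many internal summits were chosen by that number. The overlapping genes CG4622 and ITP shared 34 internal summits on 2R, with a median of 13.4 and a highest score of 194. ITP encodes the ion transport peptide, a hormone. The gene tonalli (tna) had 23 on 3L with a highest score of 293, and CAP, which encodes a vinculin-binding adaptor, had 20 on 2R with a highest score of 500. Imp, which encodes an mRNA-binding protein, had 17 on X with a highest score of 372. None of these genes had a summit within 500 bp of its outer limits.

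The hosts with the most internal summits were KrT95D, robo2, trio, CG46385, beat-IV, sky with CG43739, Spn, Hipk, echinus (ec), eIF5B, and CG30089. KrT95D runs from 23997538 to 24031827 on 3R and held 57 internal summits in 16 peaks. Their scores ran from 1.31 to 148 with a median of 8.12. Internal summits were thus spread over a stretch of 29452 bp of this gene, and 5 reached a score of 100. The gene robo2, which encodes a receptor for the axon guidance protein Slit, held 56 internal summits on 2L in 20 peaks, the most peaks of any host, with a median score of 8.01 and a highest of 275. The gene trio, which encodes a guanine nucleotide exchange factor for small GTPases, from 995982 to 1034875 on 3L, held 55, with a median of 16.5 and a highest of 329. Both robo2 and trio are best known from axon guidance.

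The other members of this set varied in strength. In beat-IV, which encodes an immunoglobulin domain protein of the Beaten path family, the 47 internal summits on 3R had a median score of 4.24 and none above 43.1. In eIF5B, which encodes a translation initiation factor, the 42 internal summits on 3L had a median of 33.3 and a highest score of 229. The gene sky, which encodes a Rab GTPase-activating protein, and CG43739 have the same annotated limits on 2L, so both counted the same 45 internal summits, with a median of 11.4 and a highest of 92.0. A large number of internal summits thus occurred with low as well as with intermediate scores. Spn, which encodes the phosphatase-binding protein Spinophilin, held 44 with a median of 20.5, and ec on X held 43 with a median of 22.0. All 12 genes of this set had a boundary summit at 1 end or both.

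The highest scores were found in other hosts, with the exception of Hipk. The highest, 9365, was at 348173 on 2L in Plc21C, which encodes a phospholipase C. The other 8 internal summits of Plc21C had scores between 5.23 and 46.3, so this summit stood far apart within its gene. On X, a summit at 17118330 in CG5004 had a score of 3455, and the other 7 in that gene were between 15.3 and 47.0. Both summits were the sole summit of their peak. The next, with a score of 1554, was at 29772130 on 3R in kay, which encodes the Fos subunit of the AP-1 transcription factor. Further summits of kay had scores of 429, 568, and 441, and the other 14 were at or below 54.6.

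The rest of the 10 highest scores were 1524 in unc-5, which encodes a netrin receptor, 1274 in tara, 1135 in Atpalpha, 1129 in Raf, 1020 in Hipk, 968 in Mkp3, and 825 in CHES-1-like. Atpalpha encodes the catalytic subunit of the sodium pump, Raf a kinase of the MAP kinase cascade, Mkp3 a phosphatase that acts on the MAP kinase ERK, and CHES-1-like a forkhead transcription factor. In tara, which encodes the transcriptional coregulator Taranis, the high score was no exception. Its 32 internal summits had a median of 104, and 17 of them reached 100, among them 599 at 16250256, 450 at 16255193, and 414 at 16236497 on 3R. In Atpalpha the median of 12 internal summits was 24.1 and the next highest score was 101. In unc-5 the median of 20 was 29.2 and only the highest reached 100.

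**Figure D4:**
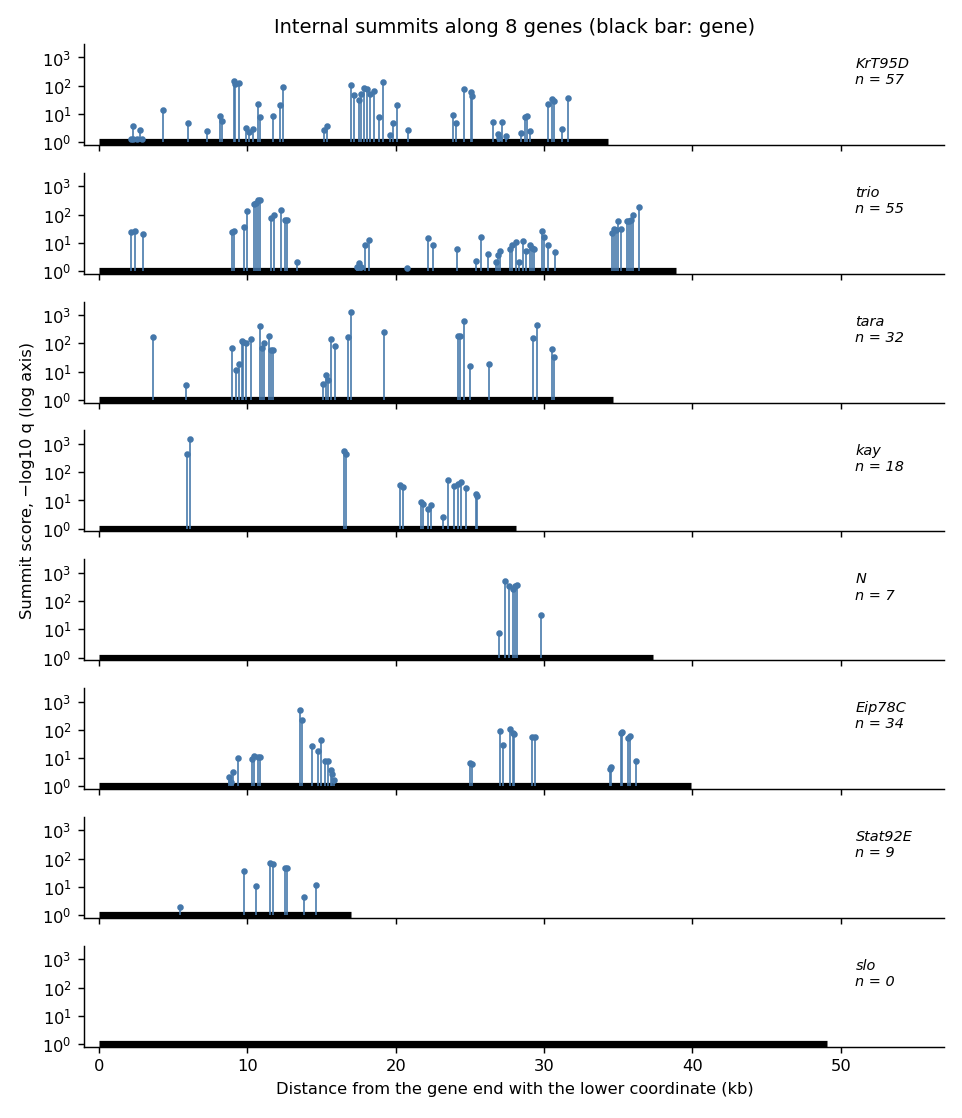
Internal summits along 8 genes, with the distance from the gene end of lower coordinate in kb on the x axis. The score, taken as −log10 of the q value, is on a log y axis. Each stem is 1 internal summit and the black bar is the gene, and stretches within 2000 bp of any gene boundary, nested genes included, can hold none. KrT95D (57) and trio (55) carry clusters along their length, N carries 6 of its 7 in 1 cluster, and slo carries none.

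At the other extreme were long genes with no internal summit. The 6 with the most eligible sequence were Octalpha2R, Lim1, slo, Cda4, stan, and unc-13-4A, each with 42703 to 45943 bp open to a member. Octalpha2R encodes an octopamine receptor, Lim1 a homeodomain transcription factor, slo a calcium-activated potassium channel, Cda4 a chitin deacetylase, and stan the cadherin Flamingo of planar cell polarity. Octalpha2R and Lim1 had a boundary summit, with strongest scores of 64.5 and 18.9. The other 4 had neither an internal nor a boundary summit, and a count of all summits between their outer limits was also 0, so at the threshold of the list no accessible site was detected inside them.

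The gene lists were then read against the backgrounds over eligible mid-length genes, of which 39.9% had at least 1 internal summit, 26.5% had at least 3, and the density was 29.4 per 100 kb when overlapping genes were each counted. Of 41 eligible signaling genes, 30 were hosts (73.2%) and 23 had at least 3 internal summits (56.1%), with a density of 61.0 per 100 kb. Of 34 genes for actin regulation or adhesion, 25 were hosts (73.5%) at 58.5 per 100 kb. Of 11 genes of the ecdysone response, 8 were hosts (72.7%) at 45.1 per 100 kb, and of 19 blood cell genes, 12 (63.2%) at 47.0 per 100 kb. The neuronal list was at the other end, with 8 hosts of 26 (30.8%) and 9.25 per 100 kb. That list does not hold robo2 and trio, best known from axon guidance, which had 56 and 55 internal summits. The lists also differed in gene length, with medians of 16402 bp for signaling genes, 24547 bp for neuronal genes, and 10944 bp for all eligible genes. Among genes of 20 to 50 kb, 15 of 16 signaling genes, 14 of 17 genes for actin regulation or adhesion, and 6 of 16 neuronal genes were hosts, against 59.4% of all. Among genes of 5 to 10 kb, 4 of 12 signaling genes were hosts, against 25.4% of all. The lists also differed in boundary summits, which 90.2% of the signaling genes and 30.8% of the neuronal genes had. Among genes with a boundary summit alone, the density was 64.8 per 100 kb for signaling genes and 26.9 for neuronal genes. It was 40.1 per 100 kb for all such genes. The share of hosts did not differ in this way. With a boundary summit, 27 of 37 signaling genes and 6 of 8 neuronal genes were hosts, against 48.1% of all such genes. The low share of hosts in the neuronal list was thus not seen among its few genes with a boundary summit, whereas the lower density was. The lists are small, their genes were picked by name, and no test of a list was made.

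**Figure D5:**
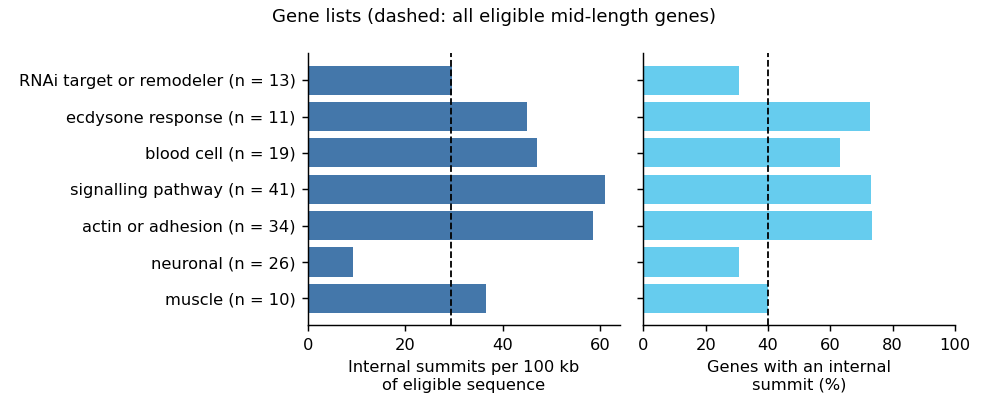
Internal summits per 100 kb of eligible sequence (left) and percent of genes with at least 1 internal summit (right) for 7 gene lists, with the number of eligible genes in parentheses. The dashed lines mark all 2873 eligible mid-length genes (29.4 per 100 kb and 39.9%), and the neuronal list is the lowest in density, at 9.25 per 100 kb.

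In the signaling list, the JNK branch of stress signaling was represented at several levels. The gene msn, which encodes an upstream kinase of the pathway, held 37 internal summits with a median score of 23.7 and a highest of 206. The gene puc, which encodes the phosphatase that restrains JNK, held 15 with a median of 38.3 and a highest of 524, and kay held 18. For hep, which encodes the kinase that activates JNK, 1 internal summit with a score of 50.9 was found. Some inhibitors of other pathways were hosts, whereas H, for a Notch antagonist, held none in 2976 bp of eligible sequence. Sprouty (sty), an inhibitor of receptor tyrosine kinases, held 19 internal summits with a median of 46.8 and a highest of 556. Dad, the inhibitory Smad of the Dpp pathway, held 16 with a highest of 656. The Wnt inhibitor gene nkd held 32 with a highest of 106, and Socs36E, an inhibitor of JAK-STAT signaling, held 5 with a highest of 70.7.

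Ligands and receptors were more uneven. The receptor gene Notch (N) had 7 internal summits. Along X they had scores of 7.38 at 3161807, 510 at 3162247, 332 at 3162526, 272 at 3162792, 341 at 3162938, 364 at 3163050, and 31.7 at 3164652. All but the last belonged to 1 peak, and 5 of the 7 were above the strongest boundary summit of N, at 68.2. InR, the insulin receptor gene, held 39 with a median of 11.8 and a highest of 319, whereas Egfr, the EGF receptor gene, held 3 with a highest of 41.6. Among ligand genes, bnl, for an FGF, held 28 with a highest score of 43.5, vn, for a neuregulin-like EGFR ligand, held 17 with a highest of 53.6, and spi, for the main EGFR ligand, held 6 with a highest of 244. The morphogen genes differed from these, since dpp held 1 with a score of 2.62 and neither wg nor hh held any. The other eligible signaling genes without an internal summit were H, Sos, fz3, arr, dome, hop, Akt, htl, and btl.

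Transcription factors downstream of signaling also differed among themselves. Stat92E, the STAT protein gene, had no boundary summit and 9 internal summits on 3R, with scores of 1.88, 35.7, 11.1, 70.7, 65.5, 48.4, 45.1, 4.46, and 12.1 in the order of their positions from 20540807 to 20549941. The highest scores of Stat92E belonged to a pair of summits in 1 peak, at 20546831 and 20547078. The gene foxo, the target of insulin signaling, held 24 with a highest score of 90.5, Mad, the Smad of the Dpp pathway, held 7 with a highest of 62.7, and the TEAD factor gene sd held 4 with a highest of 52.9. The NF-κB genes dl and Dif had few and weak internal summits, 1 with a score of 2.899 and 2 with a highest of 6.88.

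The eligible genes of the ecdysone response stood out by the strength of their internal summits. Of the 27 genes of this list, 9 were 50000 bp or longer and could hold no member. EcR, br, Eip74EF, and Eip75B are among those. Another 7 were too short, which left 11 eligible. Ecdysone is the steroid hormone of molting, and many of its early targets encode nuclear receptors. The median of the strongest internal score over the 8 hosts was 454, whereas it was 49.0 over all hosts. Of the 8, 6 were 20 to 50 kb long, and the median over all hosts of that length was 81.55. A score of 100 was reached in 7 of the 8 and in 349 of all 1146 hosts, or 30.5%. Hr39, a nuclear receptor gene on 2L, had scores of 71.6, 98.7, 34.7, 70.8, 584, 602, and 142 along the gene, and its strongest boundary summit was 578. Eip78C, a nuclear receptor gene, held 34 internal summits in 6 peaks with a median of 11.4 and a highest of 495 at 21240130 on 3L, while its only boundary summit had a score of 5.90. Hr3 held 7 with a highest of 467 and no boundary summit, ImpL2, for an insulin-binding protein, held 5 with a highest of 464, svp held 4 with a highest of 445, Hnf4 held 11 with a highest of 354, and E23, for an ABC transporter, held 6 with a highest of 334. In 5 of the 6 hosts with a boundary summit, the strongest internal summit was above the strongest boundary summit, by little in Hr39. Blimp-1, a transcriptional repressor gene, held 6 with a highest of 75.5. Hr38, Hr51, and ImpE1 held none.

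Blood cell genes gave a mixed picture. Of the 36 genes of this list, whatever their length, 27 had a boundary summit, as did 60.0% of all protein-coding genes, 56 of 64 signaling genes, 46 of 54 genes for actin regulation or adhesion, and 17 of 44 neuronal genes. The blood cell genes NimC1, Sr-CI, Sr-CII, Sr-CIII, PPO1, Ance, vkg, Col4a1, and kn had none. The boundary summits therefore did not set the blood cell list apart from lists of general function, and the labelled cell type was not checked further. Of the 19 eligible, Pvr, the PDGF and VEGF receptor gene of hemocytes, held 20 internal summits on 2L with a median of 14.9 and a highest of 246. Pxn, for the matrix enzyme peroxidasin, held 19 with a median of 3.55 and a highest of 131, which was above its strongest boundary summit of 14.03. Mmp1, a matrix metalloprotease gene, held 10 with a highest of 235, and zfh1, a transcription factor gene of blood progenitors, held 13 with a highest of 211. The GATA factor gene srp had only weak internal summits, 4 with a highest score of 6.59, beside a boundary summit of 122. LanA, a laminin gene, was alike, with 4 internal summits up to 3.12 and a boundary summit of 208. Hml, a marker of hemocytes, held no internal summit in 9946 bp of eligible sequence.

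Among genes for actin regulation and adhesion, siz, for an Arf guanine nucleotide exchange factor, held 31 internal summits with a highest score of 251, and kst, for a heavy spectrin, held 22 with a highest of 87.7. The myosin heavy chain gene zip held 21 with a highest of 96.6, and Moe, for the membrane linker moesin, held 21 with a highest of 329. In Pak, a kinase gene downstream of Rac, a cluster of 5 on 3R had scores of 551, 46.2, 43.8, 39.5, and 37.0, and its boundary summits reached 98.0. The gene cher, for filamin, held 15 between 6.83 and 62.5 and had no boundary summit. The strongest internal summits of this list were thus in Pak and Moe. The integrin alpha chain genes mew and if held none in 34340 and 27244 bp, nor did sn, for fascin, in 14575 bp.

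Many neuronal genes had neither an internal nor a boundary summit. This was so for 16 of the 26 eligible (61.5%) and for 678 of all 2873 eligible genes (23.6%). With summits at any distance from an end counted, 14 of the 26 (53.8%) had none between their outer limits, as did 29.9% of all eligible genes. The 16 include the GABA receptor gene Rdl, the synaptic genes nSyb and Rim, the channel genes slo and Shaw, and the transmitter enzyme genes ChAT and Gad1. Of the 45 internal summits in the list, 28 were in brat and 9 in dlg1. These genes also act outside neurons, brat as a repressor of translation and dlg1 in epithelial polarity. Left out after their values were seen, they leave 24 genes with 6 hosts, 8 internal summits, and a density of 1.93 per 100 kb. The strongest of those 8 was in the potassium channel gene Shal, at 82.2. Of 10 eligible muscle genes, 4 were hosts. Obsc, for the giant kinase obscurin, held 26 of 51 internal summits, with a median score of 2.17, and Mef2, for a muscle transcription factor, held 11 with a highest of 542. Mhc, up, wupA, Tm2, and Mf, which encode sarcomere proteins, had neither an internal nor a boundary summit.

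The genes targeted by the dsRNAs and other remodeler genes were near the background in density. Of 13 eligible, 4 were hosts (30.8%, against 39.9% of all eligible genes). The density was 29.5 per 100 kb (against 29.4), and 12 had a boundary summit (92.3%, against 70.3%). Of those 12, 3 were hosts (25.0%, against 48.1% of all eligible genes with a boundary summit). Their density was 28.0 per 100 kb, against 40.1, so both values were lower in this comparison. Trl, the GAF gene, runs on 3L and was the exception in having no boundary summit and 3 internal summits of 1 peak, with scores of 34.2 at 14755081, 122 at 14755284, and 15.1 at 14755618. E(bx), the NURF301 gene, and Bap170 held no internal summit, in 8985 and 1845 bp of eligible sequence, and had boundary summits up to 238 and 384. Mi-2, for the ATPase of the NuRD complex, held 12 with a median of 37.9 and a highest of 84.1, and osa, for the signature subunit of the BAP complex, held 8 with a highest of 72.8. In dom the 2 internal summits had scores of 2.14 each. The remodeler genes polybromo, brm, e(y)3, Acf, kis, Chd1, and Ino80 held none. The parts of these transcripts matched by the dsRNAs were not used here.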

How the data were processed

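ATAC-seq was performed in S2 cells after LACZ, GAF, BAP170, NURF301, or NURF301+BAP170 dsRNA, with 2 libraries each. The authors deposited 1 list of 39806 summits from 15615 peaks called on all libraries together, with a score per summit that is −log10 of the q value (lowest 1.30, median 21.9). The submitters' processing notes name Bowtie2 2.3.5.1, MACS2 2.1.0.20150731, deepTools 3.1.3, DESeq2 1.26.0, and dm6. For read filters and a Tn5 shift, the sources used here give nothing. The number of columns without a mapped sample was 0.

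Summit positions (1-based) were compared with gene limits from RefSeq for dm6. Eligible sequence is the part of a gene where a member could lie. Boundary summits lay within 500 bp of either end of a gene. Members, lists, and rules were chosen with earlier results of these data known. List names were matched by symbol or by a synonym that points to 1 gene. Genes named were the 12 hosts with the most members, the hosts of the 10 highest scores, the 6 genes with the most eligible sequence and no member, list genes with at least 3 members, and the RNAi targets. Other list genes, the broadest clusters, and hosts without a boundary summit were named after their values were seen, and 1 of these hosts is not reported here. Alternatives were limits of 1000 and 3000 bp, 1 summit per peak (the strongest), scores of at least 10 or at the list median, merging under 200 bp, and boundary distances of 250 and 1000 bp. The rule code was tested on simulated data. No genome sequence was used, so motif searches were not run. Calculations used pandas 2.3.3 and numpy 2.4.6 under Python 3.11.15, intervals scipy 1.17.1, and plots matplotlib 3.10.9.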

Additional observations from a re-analysis of the deposited data

How the results depend on the processing

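No paired analysis was possible because the list pools all libraries, and for the same reason no library could be left out. The limits are the missing depth per library, the missing strand and transcript starts, and overlapping genes that share summits. The density difference between genes with and without a boundary summit kept its direction in all 12 alternatives, from 8.17 to 33.7 per 100 kb.

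Counting the strongest summit of each peak left 2853 internal summits, with a median score of 17.4, 11.0 per 100 kb, 37.6% hosts, 73.3% of hosts with a boundary summit, and a difference of 8.17 per 100 kb. With scores of at least 10 the values were 4416, 36.4, 17.0, 32.2%, 81.5%, and 18.6. With scores at or above the median of the list they were 3065, 55.5, 11.8, 26.8%, 77.7%, and 12.8. These selections remove summits by construction. Merging gave a median score of 15.1, 19.9 per 100 kb, and a difference of 21.5. With a limit of 1000 bp there were 30.8 per 100 kb, 47.9% hosts, and a difference of 33.7, and with 3000 bp there were 28.2 per 100 kb and 37.5% hosts. Boundary distances of 250 and 1000 bp put 77.6% and 89.2% of hosts beside a boundary summit, and at 250 bp the difference was 30.9. In genes isolated by 1000 bp from the boundaries of other genes, an alternative chosen after seeing the data, the share was 67.8% and the difference 18.5.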

Other observations

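Internal summits seldom lay in noncoding genes. Of the 7550, 36 (0.477%) were also inside a noncoding gene. A noncoding gene whose every base lies within 2000 bp of a boundary can hold none by the rule. The share is thus low in part by construction, and the noncoding sequence that could hold a member was not counted.

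The 2 highest scores of Plc21C lay close together. The internal summit at 348173 on 2L had a score of 9365, and a second summit 7021 bp away, at 355194 and 372 bp from the end of the gene, had a score of 8402, the highest of all summits within 500 bp of an end of a protein-coding gene. Each was the only summit of its peak, and the third highest score in Plc21C was 47.5. No explanation was tested.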
